A study of Mus musculus with 12 samples.

Results

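Gene windows that carried both H3K27me3, the repressive Polycomb mark, and H3K4me3, the mark of promoters, were examined in KPC1199 cells, a mouse line of pancreatic ductal adenocarcinoma grown in culture, with the strain label C57BL/6. A window was called bivalent when, in untreated cells, its H3K27me3 was at or above the 90th percentile of all windows (152.9 normalised tags) and its H3K4me3 at or above the median (66.7 normalised tags). This rule held in 713 of 25507 windows (2.80%). The members were therefore selected on the H3K27me3 and H3K4me3 libraries of untreated cells, whose values are given here as a description.

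CUT&Tag, an assay in which an antibody guides a transposase to insert sequencing adapters near a mark, was run for H3K4me3, H3K27Ac (active promoters and enhancers), H3K27me3 and ubiquitinated histone H2A (labelled H2A119Ub). Each mark was read in 3 cell states: untreated cells with no PD-L1 gate (PD-L1 all), cells given 10 ng/ml IFN-gamma with no gate (all treated cells), and cells given 10 ng/ml IFN-gamma that were PD-L1 high. There was 1 library per mark and state, 12 in all, so every difference compares 2 libraries, has no replicate check and has no p-value. One line was used, how PD-L1 high cells were obtained is not given in the sources used here, and they may be part of the population read as all treated cells.

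A normalised tag is the deposited tag density multiplied by a window of 6000 bp, a length inferred from the values. A counted tag was worth 1.32 normalised tags in the shallowest library, H2A119Ub of all treated cells, and 0.989 to 1.03 in the other 11. In untreated cells, 10 of 11 ductal epithelial marker windows had H3K4me3 at or above the median window, with a median of 348 tags. The same held for 1 of 13 leukocyte, 4 of 9 fibroblast and 1 of 8 endothelial marker windows. These are bulk libraries: fewer marked cells and less mark per cell cannot be told apart, nor can both marks on 1 gene copy be told from each mark on a different copy or cell.

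Polycomb repressive complex PRC2 deposits H3K27me3, and PRC1, through its RING1 subunits, ubiquitinates histone H2A, while trithorax-type methyltransferases deposit H3K4me3 at CpG-rich promoters. Promoters that carry H3K27me3 and H3K4me3 together were first described in embryonic stem cells at regulators of development, which are kept low there but can be switched on. In adult tissues, the pancreas included, Polycomb marks cover genes of other lineages.

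Promoters of 6 members are shown because the results below turn on them: Tbx1 and Neurod2, transcription factors among the highest in H3K27me3, Wnt1, a secreted signalling ligand, Pdx1, the pancreatic lineage factor high in both marks, Krt7, a ductal keratin, and H2-Q4, an MHC class I gene. Each runs 5′ to 3′ on the gene's strand over 300 bp, from 250 bp before to 50 bp after the start, in RefSeq on GRCm38.p6 (mm10), with CG dinucleotides in capitals. From 9 to 26 CG dinucleotides lie in each, 26 in Tbx1 and in Wnt1, 21 in Krt7, 16 in Neurod2, 11 in Pdx1 and 9 in H2-Q4.
Tbx1 (chr16:18588850-18589149, minus strand): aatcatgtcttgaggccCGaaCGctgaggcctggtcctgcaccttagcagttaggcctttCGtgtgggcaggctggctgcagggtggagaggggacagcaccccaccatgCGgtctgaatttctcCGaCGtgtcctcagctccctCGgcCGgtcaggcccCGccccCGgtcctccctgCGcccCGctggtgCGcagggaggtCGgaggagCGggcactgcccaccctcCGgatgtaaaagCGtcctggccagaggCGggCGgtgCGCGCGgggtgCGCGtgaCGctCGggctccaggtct
Neurod2 (chr11:98329596-98329895, minus strand): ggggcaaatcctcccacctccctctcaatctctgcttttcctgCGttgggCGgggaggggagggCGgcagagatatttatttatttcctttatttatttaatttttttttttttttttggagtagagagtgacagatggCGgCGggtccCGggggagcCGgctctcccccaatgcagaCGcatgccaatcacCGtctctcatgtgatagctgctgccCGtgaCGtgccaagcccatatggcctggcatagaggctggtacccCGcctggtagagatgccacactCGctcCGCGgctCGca
Wnt1 (chr15:98789607-98789906, plus strand): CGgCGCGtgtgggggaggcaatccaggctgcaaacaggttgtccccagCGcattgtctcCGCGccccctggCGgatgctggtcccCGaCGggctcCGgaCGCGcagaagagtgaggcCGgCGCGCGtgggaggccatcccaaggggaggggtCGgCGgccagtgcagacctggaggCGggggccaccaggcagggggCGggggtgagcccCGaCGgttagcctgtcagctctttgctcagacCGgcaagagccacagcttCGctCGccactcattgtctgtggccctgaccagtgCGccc
Pdx1 (chr5:147269847-147270146, plus strand): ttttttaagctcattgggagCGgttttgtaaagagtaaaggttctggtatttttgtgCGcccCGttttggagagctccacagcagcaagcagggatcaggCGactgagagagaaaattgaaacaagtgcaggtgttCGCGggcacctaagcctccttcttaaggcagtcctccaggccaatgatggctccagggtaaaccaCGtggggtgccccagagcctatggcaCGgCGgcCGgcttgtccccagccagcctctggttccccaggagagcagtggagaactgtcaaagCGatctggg
Krt7 (chr15:101412153-101412452, plus strand): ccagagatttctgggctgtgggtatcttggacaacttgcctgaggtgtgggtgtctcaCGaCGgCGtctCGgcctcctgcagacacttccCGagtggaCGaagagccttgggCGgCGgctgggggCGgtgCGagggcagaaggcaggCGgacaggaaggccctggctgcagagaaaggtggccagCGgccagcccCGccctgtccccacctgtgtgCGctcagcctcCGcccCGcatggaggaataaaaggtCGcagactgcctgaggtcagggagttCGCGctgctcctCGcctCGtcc
H2-Q4 (chr17:35379367-35379666, plus strand): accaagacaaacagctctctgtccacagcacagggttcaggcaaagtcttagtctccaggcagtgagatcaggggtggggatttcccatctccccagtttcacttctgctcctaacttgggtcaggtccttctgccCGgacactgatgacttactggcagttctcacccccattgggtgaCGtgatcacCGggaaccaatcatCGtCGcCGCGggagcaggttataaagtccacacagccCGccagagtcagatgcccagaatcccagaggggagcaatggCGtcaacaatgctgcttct
The deposited windows are not placed by coordinates, so these sequences locate the gene starts and not the tags. RefSeq promoters were at hand for 69.8% of the member windows, too few for a comparison of CpG content between classes, and none is given.

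**Figure D1:**
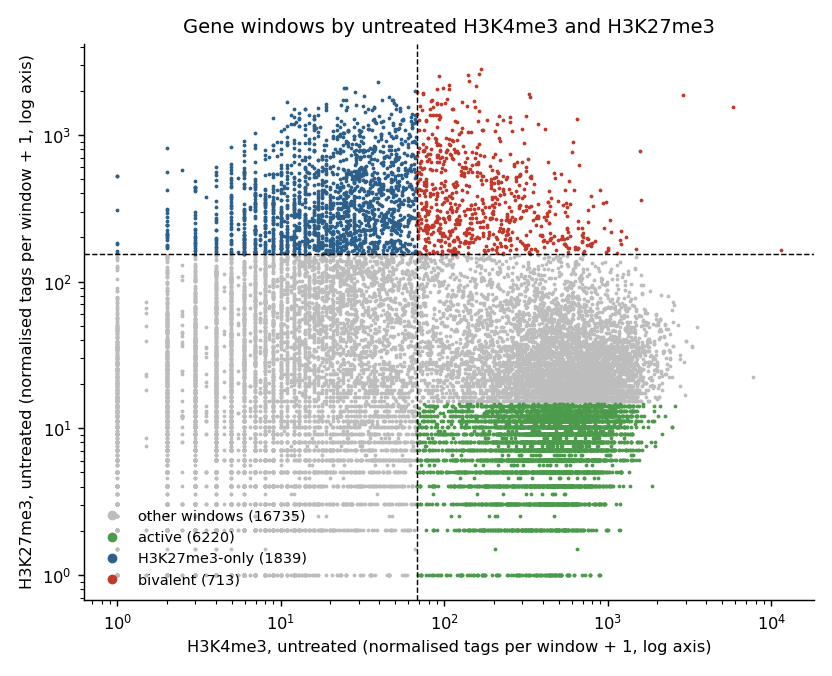
Each point is 1 gene window, with untreated H3K4me3 on the x axis and untreated H3K27me3 on the y axis (normalised tags per window + 1, both log axes). Dashed lines are the 2 thresholds of the rule, and the 713 bivalent windows fill the upper right corner, thinning out as H3K4me3 rises.

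The values that chose the members ran without a gap across both thresholds. Btbd17 and Ebi3 lay just inside the H3K27me3 threshold with 153.4 tags each, and Ptprn and Slc36a1 just outside with 152.4 tags each. Hils1 and Odf3b lay just inside the H3K4me3 threshold with 66.7 tags each, and Bik and Doc2a just outside with 66.2 tags each. Membership near the lines is therefore a matter of less than 2 tags. Most members sat low on the H3K4me3 scale: 82 of 713 (11.5%) reached its 75th percentile of all windows, 468 tags.

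Both other marks, which the rule did not use, were higher in the members than in windows with high H3K27me3 and H3K4me3 below the median. These 2 classes are split by untreated H3K4me3, and both marks varied with H3K4me3 within a class. The differences are therefore not independent of the split. For this comparison, 1839 windows had H3K27me3 at or above the same threshold but H3K4me3 below the median (H3K27me3-only windows), and 6220 had H3K4me3 at or above the median and H3K27me3 below its median (active windows). In untreated cells the median H3K27Ac was 64.4 tags in bivalent windows (quartiles 45.2 and 99.4), 21.3 in H3K27me3-only windows (14.2 and 32.7) and 107 in active windows. H3K27Ac was at or above the median of all windows in 517 members (72.5%), in 169 H3K27me3-only windows (9.19%) and in 5644 active windows (90.7%). Acetylation thus lay between the other classes, and the quartile ranges of bivalent and H3K27me3-only windows did not overlap. Among the members, the Spearman rho of H3K4me3 with H3K27Ac was 0.63 (713 windows of 1 sample, which share gene density and window overlap). In H3K27me3-only windows this rho was 0.69.

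H2A119Ub was higher in bivalent windows than in either other class. Its untreated median was 151 tags in bivalent windows (quartiles 106 and 208), 85.9 in H3K27me3-only windows (61.8 and 119.4) and 34.0 in active windows. That is 1.75 times the H3K27me3-only level in untreated cells, and the ratio was 1.93 in all treated and 1.69 in PD-L1 high cells. H2A119Ub at or above the 90th percentile of all windows (114 tags) was found in 509 members (71.4%), in 535 H3K27me3-only windows (29.1%) and in 84 active windows (1.35%).

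The untreated H3K27me3 medians were 321 tags in bivalent and 315 in H3K27me3-only windows, both classes having been chosen at the same H3K27me3 threshold. When windows were divided into 4 groups at the quartiles of H3K27me3, the untreated H2A119Ub median was 117 against 61.8 tags in the lowest group, 133 against 74.1 in the next, 149 against 89.5 in the third and 201 against 129 in the highest. Bivalent windows were higher in all 4 groups of each state. Within the 713 members in untreated cells, the rho of H2A119Ub was 0.45 with H3K27me3 and 0.55 with H3K27Ac, and the latter was 0.68 in H3K27me3-only windows. The rho of H2A119Ub with H3K4me3, the mark that splits the 2 classes, was 0.14 in the members and 0.62 in H3K27me3-only windows.

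**Figure D2:**
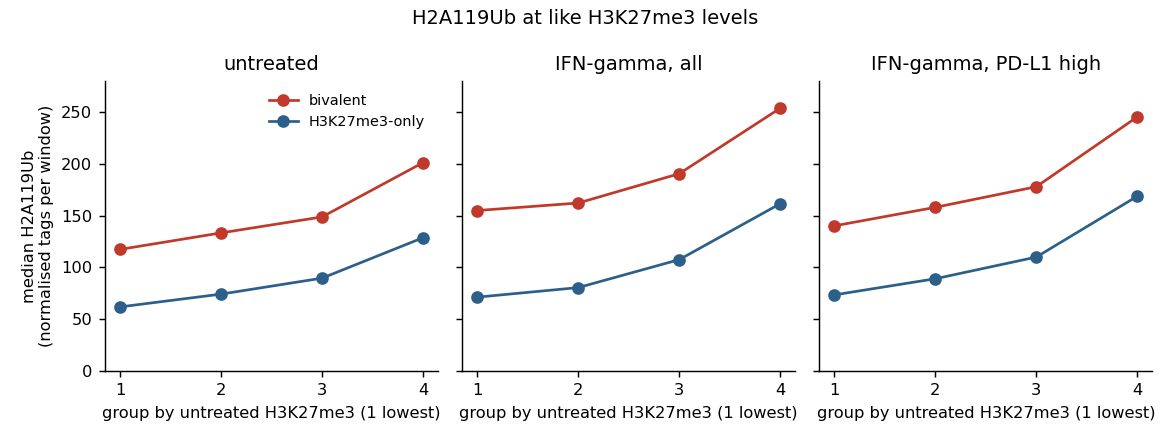
Median H2A119Ub (normalised tags per window) on the y axis against 4 groups of windows cut at the quartiles of untreated H3K27me3, from 1 for the lowest to 4 for the highest, in the 3 cell states. Bivalent windows (red) lie above H3K27me3-only windows (blue) in every group, 117 against 61.8 tags in the lowest group of untreated cells and 201 against 129 in the highest.

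**Figure D3:**
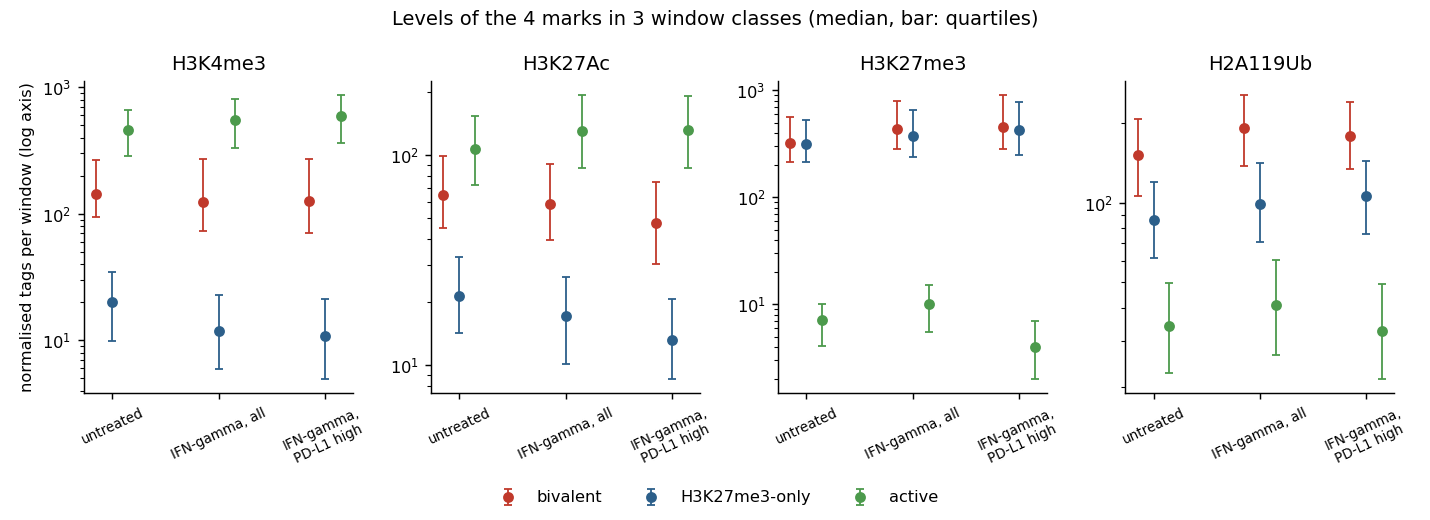
Median level of each mark in normalised tags per window (log axis) in the 3 states, with bars from the lower to the upper quartile of windows, for bivalent, H3K27me3-only and active windows. Bivalent windows lie between the other classes in H3K4me3 and H3K27Ac and highest in H2A119Ub, where the untreated medians are 151, 85.9 and 34.0 tags.

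The 8 members with the highest untreated H3K27me3 are a description, since that library chose the members. Srcin1, a scaffold that regulates Src kinase, had 2803, 3121 and 4049 H3K27me3 tags in untreated, all treated and PD-L1 high cells. Kcnh3, a voltage-gated potassium channel, had 2621, 3277 and 4166 tags. Tbx1, a T-box factor of the pharyngeal apparatus, had 2548, 3024 and 3925 H3K27me3 tags, with 139, 88.4 and 87.1 H3K4me3 tags. Neurod2, a neuronal bHLH factor, had 2521, 2931 and 4130 H3K27me3 tags, with 91.6, 60.6 and 44.5 H3K4me3 tags. Ankrd63, Kcnj4, an inward rectifier potassium channel, Sp6, a zinc finger factor of tooth and skin, and C1ql1, a secreted synaptic protein, completed the 8 highest, at 2063 to 2315 tags in untreated cells. All 8 had the highest value of the 3 states in the PD-L1 high library, and all had low H3K4me3 (91.6 to 166 tags in untreated cells). That order is not particular to them. In the highest of the 4 H3K27me3 groups the medians were 820, 1086 and 1386 tags in members and 801, 1023 and 1253 in H3K27me3-only windows. Of all members, 67.7% had more tags in PD-L1 high than in all treated cells, a direction that depended on the scaling, as given below.

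The members with the highest H3K4me3 formed another group. Pdx1, the homeodomain factor of the pancreatic bud and beta cell, had 1560.2, 1816 and 1872 H3K4me3 tags and 514, 405 and 451 H3K27Ac tags, beside 773, 1040.0 and 1245 H3K27me3 tags and 171, 228 and 216 H2A119Ub tags. Its 4 marks were thus all above the class medians in every state. The neighbouring long noncoding gene Plut had 1599, 1917 and 2002 H3K4me3 tags. Tnrc6c, a GW182 protein of microRNA silencing, Garnl3, Sema4c, a semaphorin, and Steap1, a metalloreductase, had 1189 to 1291 H3K4me3 tags in untreated cells with 180 to 221 H3K27me3 tags, close to the threshold. The 82 members at or above the 75th percentile of H3K4me3 had median H3K27Ac of 165, 191 and 169 tags against 59.4, 52.7 and 42.5 in the other 631. Their H2A119Ub medians were 163, 237 and 201 tags against 149, 184 and 176, so the members with most H3K4me3 were not low in H2A119Ub in any library.

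3 members stood far apart. At repeated or multicopy sequences, tags of many copies can fall on 1 window, and whether this holds for these 3 was not tested. RN45S, the ribosomal RNA precursor, had 6530.4, 10106 and 10916 H2A119Ub tags, 2700054A10Rik ranked first of all windows in H3K27Ac in each state, and the pseudogene Pisd-ps3 ranked first in H3K4me3 in each state. Leaving all 3 out, an alternative added after seeing the data, moved no median log2 ratio given here by as much as 0.01.

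Developmental gene families had members in both the bivalent and the H3K27me3-only class. Of 242 lineage transcription factors in the lists (Hox, other homeobox, Sox, T-box, forkhead, GATA and bHLH factors), 27 were bivalent (11.2%) and 141 were H3K27me3-only (58.3%), against 2.80% and 7.21% of all windows. Of 154 signalling ligands, antagonists and receptors (Wnt, FGF, BMP, hedgehog, Notch, ephrin and semaphorin lists), 25 were bivalent (16.2%) and 40 H3K27me3-only (26.0%). Of 40 voltage-gated potassium channels, 6 were bivalent (15%) and 11 H3K27me3-only. All windows past the H3K27me3 threshold split into 713 bivalent and 1839 H3K27me3-only. Against that split, lineage factors past the threshold were less often bivalent, and signalling genes and potassium channels more often. The H3K27me3-only class holds windows with H3K4me3 below the median, not windows without it. The H3K27me3 threshold was used by the rule, so a high share of Polycomb-marked families is no independent result.

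Of 39 Hox windows, 35 were H3K27me3-only and 3 were bivalent, all in the Hoxa cluster: Hoxa3, Hoxa5 and Hoxa13, homeodomain factors of body-axis position. Hoxa5 had 147, 242 and 172 H3K4me3 tags with 560.3, 815 and 1111 H3K27me3 tags. Hoxa13 had 88.6, 127 and 121 H3K4me3 tags with 850.3, 1163 and 1544 H3K27me3 tags. Hoxa3 had 95.6, 82.9 and 91.0 H3K4me3 tags with 709, 821 and 1190 H3K27me3 tags. H3K27me3 was thus ordered untreated, all treated, PD-L1 high in each of the 3, as were the medians of all members, while H3K4me3 had no common order. Hoxa3 and Hoxa5 lay in the longest run of neighbouring members, 6 windows on chromosome 6 that also held Hotairm1, Hoxaas3, Mira and 5730596B20Rik, noncoding genes of the cluster.

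Of 7 members among 81 other homeobox genes, Dlx4 had 1548 untreated H3K27me3 tags, Pitx3, a factor of dopamine neurons and the lens, 949, and Otx1, a forebrain factor, 739.6. The 4 Sox members (of 19) included Sox8 at 1698 and Sox18, of vessels and hair follicles, at 1385, and Sox12 at 324. Sox12 differed from these in H3K4me3, with 806 untreated tags against 81.6 and 66.7. The 2 GATA members of 6, Gata5 and Gata3, had 1325 and 176 H3K27me3 tags. Foxf1, a mesenchymal forkhead factor, had 1235, and Twist1, a bHLH factor of mesenchyme and epithelial-mesenchymal transition, 436.

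Among signalling genes, 7 of 19 Wnt ligands were bivalent and 8 were H3K27me3-only. Wnt1 had 182, 180.3 and 169 H3K4me3 tags, 106, 121 and 85.6 H3K27Ac tags and 1259, 1993 and 2354 H3K27me3 tags. Wnt10a and Wnt2b had 1372 and 681 untreated H3K27me3 tags, and Notum, a secreted enzyme that inactivates Wnt ligands, 955. The Notch list had 3 bivalent windows of 9 and none in the H3K27me3-only class: the ligands Dll4 and Dll3, with 1495 and 268 untreated H3K27me3 tags, and the receptor Notch3, with 783. Fgf9, an FGF ligand, had 865 tags, Efna3, an ephrin, 1054.5, and Gli1 and Dhh of the hedgehog pathway 185 and 166. Sema6b had the most H3K27me3 of the 5 semaphorins, with 493 tags.

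Genes of the Polycomb machinery itself were among the members. Of 22 PRC1 subunit genes, 5 were bivalent and none was H3K27me3-only, among them Cbx2 and Cbx8, whose chromodomain proteins read H3K27me3, and Pcgf1 and Pcgf3, RING finger partners of RING1. Of 22 genes of PRC2 and the H3K27 and H3K4 enzymes, Phf19, a PRC2 accessory subunit, was the 1 member. Cbx8 had 1279, 2086 and 2304 H3K27me3 tags with 646, 815 and 885 H3K4me3 tags and 314, 432 and 359.9 H2A119Ub tags. Cbx2 had 173, 277 and 239 H3K27me3 tags. Cbx2 and Cbx8 are neighbours on chromosome 11. Pcgf1, Pcgf3 and Phf19 had 182, 169 and 166 untreated H3K27me3 tags, close to the threshold. The 6 genes had a median H3K4me3 of 673, 796 and 925 tags against 143, 125 and 126 in all members.

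Members made up 6.06% of the pancreas lineage list, 27.3% of the ductal list and 14.3% of the cell cycle inhibitor list. Of all windows 2.80% were members, and each of these lists is short. Of 33 pancreas lineage factors, Pdx1 and Mafa, a beta cell factor, were bivalent and 14 were H3K27me3-only. Mafa had 159, 165 and 249.8 H3K4me3 tags and 654, 1067 and 1198 H3K27me3 tags. Of the 11 ductal markers, 3 were bivalent: Krt7, Cldn7, a claudin of tight junctions, and Epcam, an epithelial adhesion molecule. The median H3K4me3 of the 11 ductal windows was 348, 384 and 512 tags over the 3 states. In untreated cells the 3 bivalent ductal windows had 269.7, 286 and 309 H3K27me3 tags. Of 7 cell cycle inhibitors, Cdkn1a, a CDK inhibitor induced by p53, was bivalent with 209, 266 and 235 H3K4me3 tags and 193, 209 and 155 H3K27me3 tags. No member was found among 24 immune checkpoint genes, 28 housekeeping genes, 13 leukocyte markers or 8 endothelial markers. With members at 2.80% of all windows, lists this short can hold none, so this is no result about those genes. Pdgfra was the 1 member among 9 fibroblast markers.

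The members kept both marks in most cases when the same percentiles were taken in the other states. With thresholds from its own libraries, all treated cells had 633 of the 713 members in the rule (88.8%) and PD-L1 high cells 606 (84.99%). The H3K4me3 threshold was lower in these states, at 52.64 and 51.45 tags. With the untreated thresholds, 548 and 541 members met the rule. By each state's own thresholds, 579 members met it in all 3 states (81.2%), and 53 (7.43%) met it in untreated cells alone. Of members that left, more left by H3K4me3 (65 and 82 below its threshold) than by H3K27me3 (18 and 28). Of the 53, 48 had untreated H3K4me3 under 2 times the threshold, and the untreated libraries chose the members, so these counts are a description.

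163 windows outside the members met the rule in all treated cells and 134 in PD-L1 high cells, 77 of them in both. Those in the gene lists lay mostly near the untreated thresholds. Foxa2, a forkhead factor of endoderm, had 121, 173 and 242 H3K27me3 tags and 740.3, 1079.6 and 1033 H3K4me3 tags. Gata4, an endoderm and heart factor, had 56.8, 59.6 and 65.3 H3K4me3 tags and 575.5, 742 and 909 H3K27me3 tags. H2-DMb1, a chaperone of MHC class II loading, had 40.8, 114 and 129 H3K4me3 tags with 447.5, 702 and 763.5 H3K27me3 tags. H2-DMb1 thus had more tags of both marks in both treated libraries than in the untreated one.

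The comparison of PD-L1 high with all treated cells used no library that chose the members. Ratios were log2 of the value plus a pseudocount, centred on the median of windows with a mean at or above the mark's median (kept windows), and a window was called at 2-fold. H3K27Ac was lower in PD-L1 high cells at the bivalent windows. The median log2 ratio was -0.25 over the 464 kept members and -0.24 over all 713, of which 516 were below 0 (72.4%). Without the filter 47.4% of all windows and 61.8% of H3K27me3-only windows were below 0. The direction held under each scaling tried (-0.30 with no centring). Active windows had a median of 0.05 and H3K27me3-only windows one of -0.18 without the level filter. Among kept windows, the 62 H3K27me3-only windows had a median of -0.39. Of these 77.4% were below 0, beside 74.8% of kept members, so the members were not below that class there. Among kept members 1 was at least 2-fold higher, where 0.0784% of all kept windows were, and 10 were at least 2-fold lower, where 0.196% were.

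The lower H3K27Ac was present at each level of acetylation. When windows were divided into 4 groups at the members' quartiles of H3K27Ac in the untreated library, which neither side of the ratio uses, bivalent windows had medians of -0.20, -0.18, -0.26 and -0.29 from the lowest group to the highest. Active windows in the same ranges had 0.11, 0.10, 0.05 and 0.03. Fam83c had 73.0, 75.9 and 27.3 H3K27Ac tags in untreated, all treated and PD-L1 high cells, a log2 ratio of -1.28 between the treated states (95% counting interval -2.07 to -0.75). Trnp1, a nuclear regulator of neural progenitors, had 62.9, 72.9 and 26.3 tags (-1.27, -2.13 to -0.76), and Btbd17 had 109.6, 70.9 and 25.8 (-1.25, -2.11 to -0.74). In these 3 the PD-L1 high library held the lowest value of the 3 states. Fjx1, a homolog of the fly growth regulator four-jointed, went the other way, with 48.7, 29.9 and 70.4 tags (1.16, 0.63 to 1.94).

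H3K27me3 was higher in PD-L1 high cells relative to other kept windows, and this direction depended on the scaling. The median log2 ratio of the 713 members was 0.40, 634 were above 0, and it was 0.14 with no centring but -0.06 after quantile normalization. Without the filter 46.2% of all windows and 96.5% of H3K27me3-only windows were above 0, beside 88.9% of the members. All kept windows had shifted by -0.26 before centring. H3K27me3-only windows had a median of 0.46, so the members were not above them, and active windows one of -0.58 without the filter. No member was at least 2-fold higher or lower, where 1.37% and 12.6% of kept windows were. The members' level itself was close in both treated libraries, with medians of 437 and 458 tags.

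Single members spread on both sides of that median. Lhfp had 170.2, 182 and 294 H3K27me3 tags, a log2 ratio of 0.95 between the treated states (0.68 to 1.22). Igf2bp3, an oncofetal RNA-binding protein, had 217, 317 and 507 tags (0.94, 0.73 to 1.14). The PD-L1 high library was the highest of the 3 in each. Garnl3 had 221, 313 and 150.4 tags (-0.79, -1.09 to -0.51) and Abtb1 216, 395 and 198 (-0.73, -0.99 to -0.49). In both the treated library was high and the PD-L1 high library was below the untreated value. By role, 25 of 27 lineage factors, 23 of 25 signalling genes and 6 of 6 potassium channels were above 0, beside 3 of 6 Polycomb genes and 634 of all 713. The medians were 0.59, 0.46 and 0.44 for the first 3 groups and 0.01 for the Polycomb genes. The members' median also rose with untreated H3K27me3, from 0.21 in the lowest of its 4 groups to 0.54 in the highest. H3K27me3-only windows showed the same rise, from 0.36 to 0.60, so it is not particular to the members. Untreated H3K27me3 medians by role were 514, 349 and 439 tags, and 178 for the Polycomb genes. Role and level were therefore not separated.

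H3K4me3 and H2A119Ub differed little between the treated states. For H3K4me3 the median log2 ratio of 667 kept members was -0.04 (0.03 with no centring), with 0 members at least 2-fold higher and 3 lower, where 0.00784% and 0.0784% of kept windows were. Those 3 were Spats1 (107, 64.6 and 29.7 tags), Ccdc188 (99.6, 85.4 and 42.5 tags) and Sp7, a factor of osteoblasts (128, 107 and 53.9 tags). Sp7 and Spats1 also had their lowest H3K27Ac in PD-L1 high cells, at 41.0 and 20.25 tags. For H2A119Ub the median was 0.07 (-0.06 with no centring), with 3 members at least 2-fold higher and 0 lower, where 0.361% and 0.517% of kept windows were. Foxa3, an endoderm forkhead factor, had 89.0, 48.8 and 110.4 H2A119Ub tags (log2 1.2, 0.75 to 1.87), Synpo2l 52.5, 30.3 and 65.4, and Crabp2, a retinoic acid carrier, 122, 79.7 and 152. In all 3 the treated library, the shallowest for this mark, held the lowest value, and the part of its depth in the result was not tested.

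**Figure D4:**
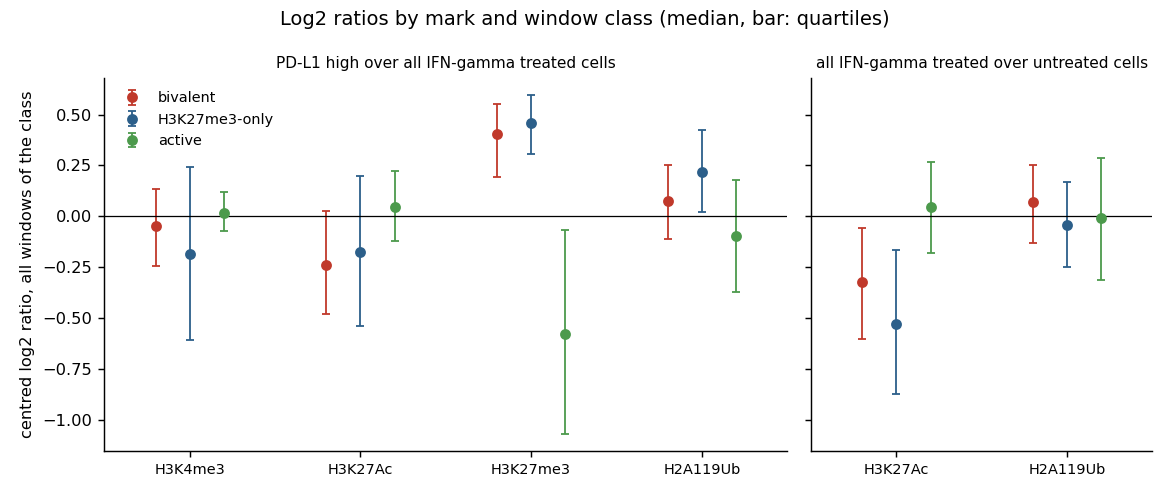
Centred log2 ratios (y axis) for PD-L1 high over all treated cells in 4 marks (left) and for all treated over untreated cells in the 2 marks that did not choose the members (right), over all windows of each class with no level filter. Points are medians and bars are quartiles of windows. Bivalent windows are below 0 for H3K27Ac in both panels, at -0.24 and -0.32, and active windows are near 0, at 0.05 in each.

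In all treated over untreated cells, H3K27Ac was again lower at the members relative to the other kept windows. The median log2 ratio was -0.26 over 464 kept members and -0.32 over all 713, with 569 below 0, but -0.02 with no centring, since all kept windows had shifted by 0.24. Without the filter 64.2% of all windows (median -0.17) and 83.5% of H3K27me3-only windows were below 0, beside 79.8% of the members. Active windows had a median of 0.05, and H3K27me3-only windows one of -0.53 without the filter. At least 2-fold higher were 0 members and lower 14, where 0.251% and 0.643% of kept windows were. Divided by H3K27Ac of the PD-L1 high library, the members' medians were -0.47, -0.41, -0.33 and -0.13 from the lowest to the highest group, and those of active windows -0.12, -0.21, -0.06 and 0.07. The 2 comparisons share the library of all treated cells, and in raw tags the members' median went from 64.4 in untreated to 58.7 in treated and 47.6 in PD-L1 high cells.

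Krt7 was among the 3 lowest members in this comparison. Its H3K27Ac was 114, 52.7 and 59.2 tags in untreated, all treated and PD-L1 high cells, a log2 ratio of -1.28 for treated over untreated cells (-1.83 to -0.85). Its H3K4me3 was 193, 123 and 156 tags and its H3K27me3 269.7, 300.4 and 296, so acetylation was low in both treated libraries while H3K27me3 differed little. Cldn7 had 98.4, 61.8 and 42.0 H3K27Ac tags and Epcam 25.4, 19.2 and 23.3. Foxj1, the factor of motile cilia, had 169, 71.4 and 73.9 H3K27Ac tags (-1.42, -1.90 to -1.07), and Wfdc6a 68.0, 29.4 and 45.0 (-1.32, -2.07 to -0.76). Both treated libraries were below the untreated one in each. Atf3, a stress-induced transcription factor, had 159, 307 and 312 H3K27Ac tags (0.69, 0.42 to 0.99), and the neighbouring genes Fzd4, a Wnt receptor, and Tmem135 shared a window value of 31.45, 68.9 and 41.5.

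H2A119Ub of the members was close to that of the other kept windows after treatment. The median log2 ratio was 0.07, with 0 members at least 2-fold higher and 2 lower, where 0.408% and 0.894% of kept windows were. The 2 were Myadml2, with 135, 69.2 and 118.6 tags (-1.13, -1.69 to -0.73), and Foxa3 (-1.01, -1.67 to -0.51). The highest were Nr4a3, an immediate early nuclear receptor, with 77.2, 186 and 126 tags (0.95, 0.63 to 1.46), Hoxaas3, with 41.2, 103 and 93.55, and Gata3, with 89.5, 209 and 160.0. In raw tags the members' median was 151, 191 and 179, and all kept windows had shifted by 0.24 for treated over untreated cells.

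For the 2 marks that chose the members, the comparison with untreated cells is a description. H3K4me3 had a median log2 ratio of -0.36 over 667 kept members, with 1 at least 2-fold higher and 49 lower, beside 0.361% and 1.03% of kept windows. With no centring it was -0.12 with 6 lower, and after quantile normalization -0.14 with 5 lower. Over the 82 members at or above the 75th percentile of H3K4me3 it was -3.4e-05. H3K27me3 had 0.20, with 3 higher and 2 lower, beside 3.79% and 4.51%. It was 0.42 with no centring and 0.0975 after quantile normalization. Otop2, a proton channel, had 158, 63.6 and 57.4 H3K4me3 tags, and Htr1d, a serotonin receptor, 88.6, 38.7 and 54.4. Esrra, an orphan nuclear receptor, had 155, 427 and 300.3 H3K27me3 tags, and Tcap, a titin-binding muscle protein, 153, 86.6 and 78.0.

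Of 77 interferon response and antigen presentation genes, 4 were members (5.19%, against 2.80% of all windows). Among them were Tap2, a subunit of the peptide transporter, and the MHC class I heavy chain genes H2-K1 and H2-Q4. Tap2 had 748, 1159.6 and 1136 H3K4me3 tags, 182, 244 and 271 H3K27Ac tags, 197, 118.5 and 61.4 H3K27me3 tags, and 539, 414 and 341 H2A119Ub tags. In normalised tags both Polycomb marks were thus lower in each treated library and both active marks higher. Its H3K27me3 ratio of PD-L1 high over all treated cells was -0.67 (-1.17 to -0.24), among the 3 lowest of the members ranked. H2-Q4 had 138, 373 and 437 H3K4me3 tags and 154, 116 and 79.97 H3K27me3 tags, and it was the 1 member at least 2-fold higher in H3K4me3 after treatment. H2-K1 had 561, 995 and 1035 H3K4me3 tags, with 323, 284 and 232 H3K27me3 tags. H2-K1 and H2-Q4 belong to a family of close paralogs whose reads can be shared, so their single values are uncertain. Tap2 and H2-Q4 met the rule in untreated cells alone. H2-Q4 lay just above the untreated H3K27me3 threshold of 152.9 tags. The untreated libraries chose the members, so the loss of the rule is a description.

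**Figure D5:**
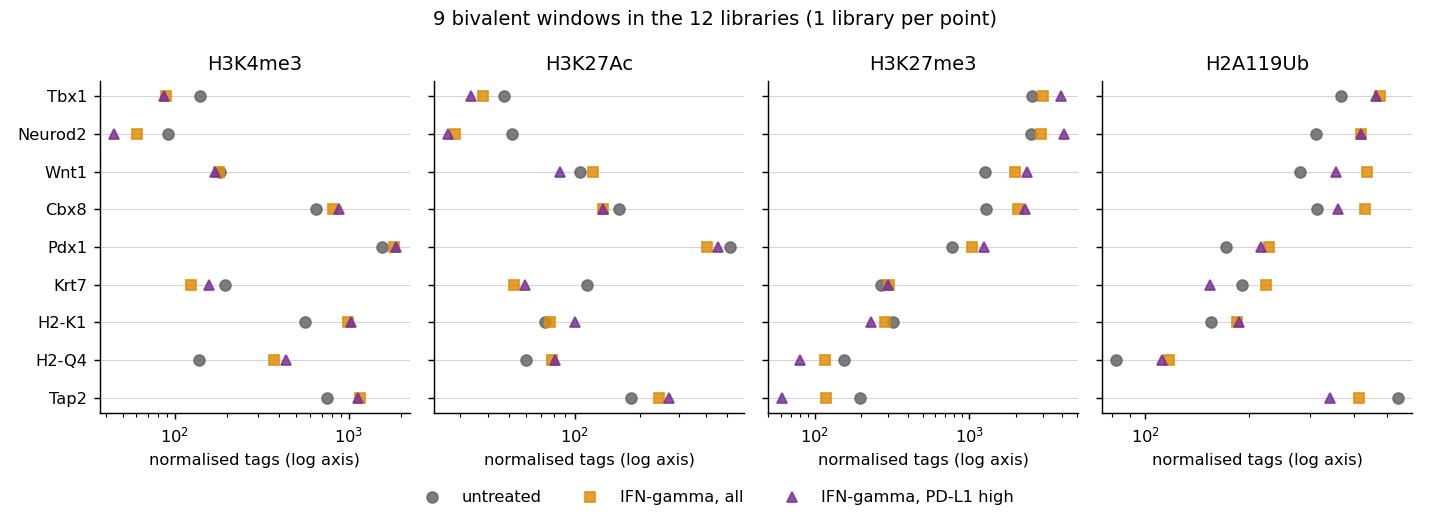
Normalised tags (log axis) of 9 bivalent windows in each of the 12 libraries, 1 panel per mark and 1 symbol per cell state. H3K27me3 is highest in PD-L1 high cells at Tbx1, Neurod2, Wnt1, Cbx8 and Pdx1 and lowest there at H2-K1, H2-Q4 and Tap2, where it goes from 197 to 61.4 tags.

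The members were unevenly placed in the genome. Chromosome 11 held 126 members, 6.77% of its windows, and chromosome 17 held 67, 5.55% of its windows, against 2.80% of all windows. Chromosome 13 had 0.944% and chromosome X 0.0910%. H3K27me3-only windows leaned the same way. They made up 9.34% of windows on chromosome 11, 7.70% on 17, 4.51% on 13 and 1.73% on X, against 7.21% of all windows. Of 707 members with a position, 280 (39.6%) lay in 123 runs of 2 or more members within 10000 bp. This share was not counted for all windows or the other classes, so it is no result about the members. The longest runs held 6 windows, in the Hoxa cluster and at the Ly6g6 genes of chromosome 17. Neighbouring genes can share tags of overlapping windows, so the 713 windows are fewer than 713 separate regions. Protein-coding genes made up 88.8% of the members, 86.9% of H3K27me3-only and 89.9% of active windows with a known type.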

How the data were processed

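Libraries of 4 histone marks in 3 states of KPC1199 cells were used. The deposited table holds, for each gene, a signal that the authors normalised. Tools named per the submitters' processing notes are Bowtie2 2.4.2, MACS2 2.2.7.1 and HOMER, with mm10 as the build. Their roles, window placement, scaling and duplicate removal are not given in those sources. Multiplied by 6000, 100% of the values lay within 10% of a whole step of their library, so they are given as normalised tags. A scaling to 10 M tags per library, with M for mega, would mean a depth of 7.59 to 10.1 M tags.

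The members, gene lists and named genes follow rules written with earlier results of these data known. Named genes are the 8 highest members in H3K27me3 and in H3K4me3, the 3 highest and 3 lowest members in each ratio (2 for marks that chose the members), the windows beside the thresholds, the extremes of H3K27Ac and H2A119Ub, and members of the lists, up to 3 by H3K27me3. Predicted genes were skipped in ranks. Foxa2, Gata4, H2-DMb1, Cldn7 and Epcam in the treated comparison and the 3 windows that stand apart were chosen after their values were seen. Some genes that the rule names are not reported here.

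A pseudocount was added at the 10th percentile of each mark's values above 0. It was 1.99 tags in H3K4me3, 5.06 in H3K27Ac, 2.03 in H3K27me3 and 8.18 in H2A119Ub, and it understates differences of low windows. Ratios were centred on kept windows. Single windows have 95% Clopper-Pearson intervals of the recovered tags, centred, with no pseudocount. These hold counting error alone, and PCR copies can make them too narrow. A window at 0 allows up to 3 tags. Symbols of 708 members matched RefSeq on GRCm38.p6 and 5 did not. No test was run, and the ratio step was tested on simulated data. Alternatives were other pseudocounts, filters, scalings, thresholds and members chosen in other libraries.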

Additional observations from a re-analysis of the deposited data

How the results depend on the processing

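No paired analysis was possible because each mark and state has 1 library. The rule found 362 windows with H3K27me3 at the 95th percentile, 1603 at the 80th, and 82 with H3K4me3 at the 75th. Median log2 ratios of PD-L1 high relative to all treated cells with no centring were 0.034 (H3K4me3), -0.30 (H3K27Ac), 0.14 (H3K27me3) and -0.065 (H2A119Ub), and with no level filter 0.016 (H3K4me3), 0.48 (H3K27me3) and 0.003 (H2A119Ub). Quantile normalization gave -0.06 in H3K27me3 (-0.0598). Members at the 95th percentile of H3K27me3 gave -0.0705, -0.295, 0.49 and 0.11 in the same order of marks. At the 80th percentile H3K27Ac had -0.13, H3K27me3 0.18 and H2A119Ub 0.013, and at the 75th percentile of H3K4me3 these had -0.084, 0.15 and -0.10. In all treated relative to untreated cells, H3K27Ac had -0.16 with no filter (centred on all windows, where the -0.32 over all 713 members is centred on kept windows), -0.024 with no centring, -0.19 after quantile normalization, -0.16 at the 80th percentile of H3K27me3 and -0.10 (-0.0985) at the 75th of H3K4me3. H2A119Ub had 0.18 with no filter, 0.31 with no centring and 0.26 at the 75th percentile of H3K4me3. The causes were not tested. H3K27me3 and H3K4me3, which chose the members, also moved relative to untreated cells, to 0.33 and -0.17 with no filter. Of the results above other than these, 39 further values, some from alternatives added after seeing the data, stayed within the order-statistic interval of the median or within 1.5 times the count. Of 27 values of named windows past 2-fold, 11 were below it with no centring, 9 with no filter, 9 after quantile normalization, 4 with the larger and 0 with the smaller pseudocount.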
